A study of Ovis aries with 9 samples.

Results

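The genes described here encode 50 metalloproteinases and the 4 tissue inhibitors that block them. Their RNA was sequenced from the longissimus dorsi, the long muscle of the back, of fetal sheep of the Chinese merino breed. Samples stand for gestation day 85 (D85), day 105 (D105) and day 135 (D135), each in 3 libraries. No treatment or genotype is labelled. Whether replicates were different fetuses is not labelled either, so the p-values speak of variation between libraries, which could be technical. Members were taken by gene name, as any name made of MMP, TIMP, ADAM or ADAMTS and a number, ADAMTSL excluded and MMP23B included. This gave 54 genes of the 22605 loci in the table, namely 18 matrix metalloproteinases (MMPs), 4 TIMPs, 13 ADAMs and 19 ADAMTS genes. MMP16 had a pair of loci and the one with the higher mean was kept. A further 20 loci carry only a locus number although their description names a metalloproteinase, and they were not taken.

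Matrix metalloproteinases are zinc enzymes that are made as inactive precursors and cleave collagens, proteoglycans and other proteins outside the cell. TIMPs bind the active site, and TIMP3 also blocks several ADAM and ADAMTS enzymes. ADAMs are membrane proteins that release the outer part of other membrane proteins, ADAMTS enzymes are secreted and cut proteoglycans, procollagens and other matrix proteins, and in growing muscle this system is known for remodelling the connective tissue around fibres and for myoblast migration and fusion.

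Values are FPKM, a fragment count scaled to transcript length and library size, so levels of different genes can be set side by side. A locus was tested when it reached 1 FPKM in at least 3 libraries, which 13086 loci and 38 of the 54 members did. Tests used limma on log2(FPKM + 1) with all 9 libraries in a single fit, and a locus was called when its Benjamini-Hochberg adjusted p, over all tested loci, was under 0.05. This scale understates the changes of genes with low values. The table holds no counts, so the number of reads is unknown, but the step made by 1 fragment at low values, seen in 43 to 63 loci in each library set against D85 replicate 1, put relative depths between 0.993 and 1.20 (D85 replicate 1 set to 1). The bulk of loci had lower FPKM at D135: over all tested loci the log2 change had a median of -0.33 for D135 against D105, -0.35 for D135 against D85 and -0.02 for D105 against D85. Median-of-ratios scaling, which sets the typical locus equal between libraries, brought these medians to 0.02, 0.01 and -0.01. Calls of members at D135 are therefore given on both scales, first on FPKM as deposited and then after this scaling. Values per library are FPKM as deposited. How often the D135 libraries lay below all earlier ones among all tested loci was not counted. Skeletal muscle markers were present in every library: 9 fibre and myoblast genes, all of which reached 1 FPKM in a library, summed to 7014, 7921 and 9399 FPKM at D85, 11623, 8549 and 9018 FPKM at D105 and 16428, 19722 and 19966 FPKM at D135. These sums are carried by fibre genes such as ACTA1 and CKM, and the D135 sums were above all earlier ones. At D135 against D105, 3 of the 9 rose (ACTA1, CKM and TTN) and 2 fell, where 4.47% of all tested loci rose and 35.0% fell. After scaling 3 rose and 1 fell, where 10.9% and 6.94% did. The 2 that fell on FPKM as deposited were the myoblast genes MYOD1 (log2 change -0.60 ± 0.20 SE, adjusted p = 0.0418; log2 change -0.22 ± 0.20 SE, adjusted p = 0.504 after scaling) and PAX7 (log2 change -0.96 ± 0.17 SE, adjusted p = 0.00444; log2 change -0.75 ± 0.15 SE, adjusted p = 0.0137 after scaling). PAX7 reached 1 FPKM in no D135 library and entered the test through the earlier days. MYOG, a further myoblast gene of this list, was not called on either scale, but fell with D105 replicate 2 left out. The part of the fibre genes in the lower FPKM of other loci was not tested.

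Connective tissue and fat markers moved with single libraries. The summed FPKM of 11 genes of fibroblasts and fibroadipogenic cells was 3239, 2287 and 2065 at D85, 2528, 6763 and 2578 at D105 and 1435, 2020.2 and 3310.0 at D135. All of these but TCF21, which stayed below 0.3 FPKM, reached 1 FPKM in a library, and COL1A1, COL1A2 and COL3A1 made up most of the sum. Single genes did not all follow it. Of 10 tested, 2 rose (PI16 and CD34) and 1 fell (DPT) at D135 against D85, where 6.90% of all tested loci rose and 39.7% fell. After scaling 3 rose (PDGFRA, PI16 and CD34) and 0 fell, where 15.3% and 12.5% did. Against D105, 0 rose and 2 fell (COL3A1 and DPT), where 4.47% and 35.0% did. After scaling 1 rose (PDGFRA) and 0 fell, where 10.9% and 6.94% did. Of 11 cartilage markers found in the table, 8 reached 1 FPKM in a library, and the sum of all 11 was 144 in D105 replicate 2, against 4.39 to 42.3 in the other 8 libraries; MATN1, COL9A2 and HAPLN1 stayed below 0.3 FPKM. COL2A1 (67.8 FPKM) and COL11A2 (64.3 FPKM) made up most of the sum in D105 replicate 2. ACAN and COL9A3 were also highest in that library, while COL9A1, MATN3, SOX9 and CHAD were highest in others. SOX9 was even lowest of D105 there. All 8 tendon markers reached 1 FPKM in a library, with a sum of 513 in D105 replicate 2, against 54.9 to 277 elsewhere. FMOD (164 FPKM), KERA (149 FPKM), THBS4 (92.9 FPKM) and TNMD (85.2 FPKM) made up most of the sum in D105 replicate 2. FMOD, KERA, TNMD, MKX and COMP were highest in that library, while THBS4, SCX and TNC were highest in others. Of 8 adipocyte markers 7 reached 1 FPKM in a library, and the sum of all 8 was 18.1, 4.30 and 3.73 at D85, 7.17, 117 and 10.2 at D105 and 36.9, 74.8 and 15.1 at D135, highest in D105 replicate 2. D105 replicate 2 therefore stood apart, and results that rest on it are given with and without it. In bulk tissue, fewer cells of a type and less RNA per cell cannot be told apart.

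MMP2, MMP14, TIMP3 and TIMP1 had the highest mean levels of the 54 genes. The order of mean FPKM over the 9 libraries was MMP2 (83.6), MMP14 (32.4), TIMP3 (31.0), TIMP1 (25.1), ADAMTS9 (19.9), ADAMTS2 (15.4), ADAM15 (15.1), ADAM33 (14.4), MMP15 (11.6) and ADAM19 (10.4). The step between MMP14, TIMP3 and TIMP1 is within the spread of their libraries, and so are those from ADAMTS2 to ADAM33. In all, 10 genes had a mean of 10 FPKM or more, 25 lay between 1 and 10, 11 between 0.1 and 1, and 8 below 0.1.

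Between D105 and D85 no member passed the test. Limma called 0 of the 38 tested members, where it called 0.199% of all tested loci, and it also called 0 after median-of-ratios scaling, against 0.193% of loci. At an unadjusted p under 0.05 stood 5 members, ADAM15, ADAMTS15, MMP28, MMP9 and TIMP3, against 1611 of the 13086 loci. The log2 changes of the 38 members ran from -0.47 (ADAMTS15) to 0.89 (MMP1), with a median of 0.07 against -0.02 over all tested loci. Without D105 replicate 2 the count was also 0, of 36 members tested, against 0.163% of all tested loci.

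Between D135 and D105 many proteinases fell. Of the 38 tested members, 24 fell and 0 rose, where 35.0% of all tested loci fell and 4.47% rose. The 24 include MMP9, which reached 1 FPKM in the 3 D105 libraries alone, so its call supports nothing. MMP1, ADAMTS6 and ADAMTS8 reached 1 FPKM in no D135 library and entered the test through the earlier days. After median-of-ratios scaling 9 of 38 fell and 0 rose, where 6.94% of all tested loci fell and 10.9% rose. The median log2 change of the members was -0.65 against -0.33 over all tested loci, and -0.31 against 0.02 after scaling. The 9 members that fell on both scales were MMP1, MMP2, MMP23B, ADAM12, ADAM33, ADAMTS4, ADAMTS8, ADAMTS16 and ADAMTS17, and each of these calls, on FPKM as deposited, held with any of the 9 libraries left out. Without D105 replicate 2, 18 of 36 tested members fell, against 29.2% of loci. With that library left out and the scaling applied together, 5 fell, against 5.83% of loci, namely MMP1, ADAMTS4, ADAMTS8, ADAMTS16 and ADAMTS17.

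**Figure D1:**
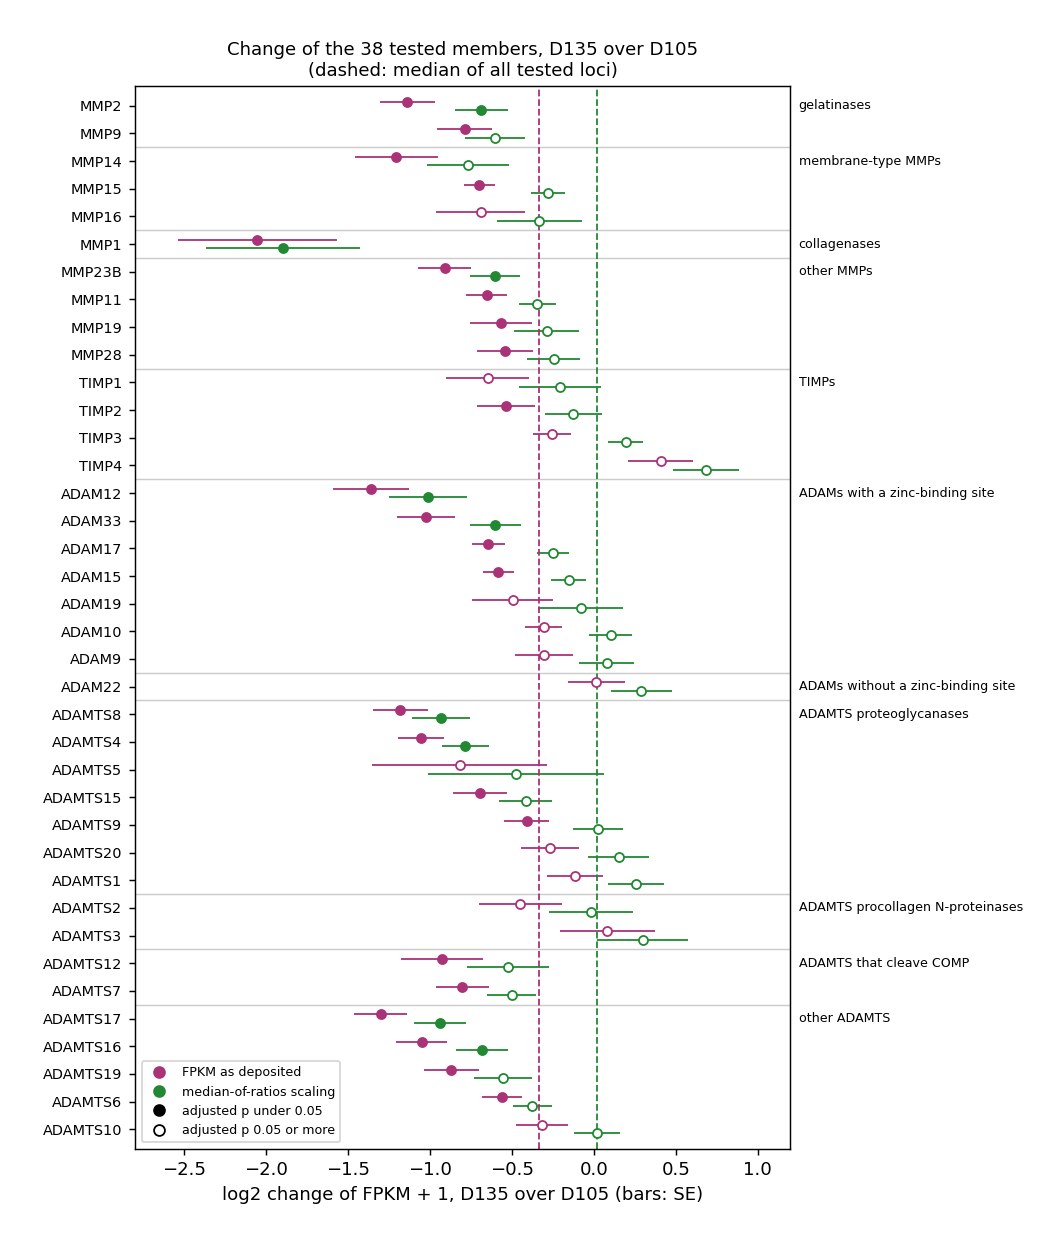
Log2 change of FPKM + 1 for D135 over D105 in the 38 tested members, grouped by role, on FPKM as deposited (purple) and after median-of-ratios scaling (green), with SE bars, filled where the adjusted p was under 0.05 and dashed lines at the median of all tested loci. On FPKM as deposited 24 members are filled and all of them lie below 0, among them MMP9, which entered the test through D105 alone. After scaling 9 are filled, and 10 members, TIMP3 and TIMP4 among them, lie above 0 without being called.

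The comparison of D135 with D85 spans the whole interval. Here 19 members fell and 1 rose, where 39.7% of all tested loci fell and 6.90% rose. The 1 that rose was TIMP4, which reached 1 FPKM in no D85 library and entered the test through the later days. After median-of-ratios scaling 12 fell and 2 rose, where 12.5% of loci fell and 15.3% rose. The median log2 change of the members was -0.45 against -0.35 over all tested loci. The 12 that fell on both scales were MMP2, MMP14, ADAM12, ADAM17, ADAMTS4, ADAMTS6, ADAMTS7, ADAMTS8, ADAMTS15, ADAMTS16, ADAMTS17 and ADAMTS19. This comparison shares its D135 libraries with the one against D105, so their calls are not independent. The test over any day called 21 of the 38 members, where it called 43.2% of all tested loci, and 13 members against 23.0% of loci after scaling.

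The gelatinases MMP2 and MMP9 cut denatured collagen and the type IV collagen of basement membranes. MMP2 was at 117, 115 and 93.6 FPKM at D85, 99.9, 104 and 89.6 FPKM at D105 and 37.7, 39.4 and 56.4 FPKM at D135. It was the most abundant member, and all D135 libraries lay below all earlier ones. MMP2 fell at D135 against D105 (log2 change -1.14 ± 0.17 SE, adjusted p = 0.00262; -0.69 ± 0.16 SE, adjusted p = 0.0247 after scaling) and against D85 (log2 change -1.28 ± 0.17 SE, adjusted p = 0.000867; -0.82 ± 0.16 SE, adjusted p = 0.00797 after scaling). D135 replicate 3 had the highest MMP2 level and the highest fibroblast marker sum of its day, and the part of connective tissue content in the fall was not tested. MMP9, the gelatinase of leukocytes and osteoclasts, was at 0.495, 0.485 and 0.820 FPKM at D85, 1.32, 1.59 and 1.56 FPKM at D105 and 0.521, 0.149 and 0.709 FPKM at D135. Its D105 values lay above those of both other days. MMP9 reached 1 FPKM in the 3 D105 libraries alone, so it entered the test only through the day where it is high, and its call supports nothing. The change of MMP9 at D135 against D105 passed on FPKM as deposited (log2 change -0.79 ± 0.17 SE, adjusted p = 0.00947) and not after scaling (-0.60 ± 0.18 SE, adjusted p = 0.0587). The leukocyte marker sum (9 of 11 genes found) was 45.3, 19.4 and 23.0 FPKM at D85. It was 27.7, 47.4 and 21.9 FPKM at D105 and 21.6, 23.6 and 26.2 FPKM at D135, and its part was not tested.

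Membrane-type MMPs sit on the cell surface, and MMP14 among them activates the MMP2 precursor together with TIMP2. The MMP14 locus was at 72.2, 36.8 and 35.1 FPKM at D85, 36.2, 36.3 and 31.5 FPKM at D105 and 12.8, 15.3 and 15.3 FPKM at D135. Its reads cannot be divided from those of the neighbouring MRPL52, a mitochondrial ribosomal protein gene joined to the same locus, and D85 replicate 1 stood well above the others. The locus fell against D85 on both scales (log2 change -1.59 ± 0.25 SE, adjusted p = 0.00191; -1.13 ± 0.25 SE, adjusted p = 0.0122 after scaling). Against D105 it fell on FPKM as deposited (log2 change -1.21 ± 0.25 SE, adjusted p = 0.00853) but did not pass after scaling (-0.77 ± 0.25 SE, adjusted p = 0.0734). MMP15 was at 15.1, 12.7 and 13.4 FPKM at D85, 14.1, 12.6 and 12.9 FPKM at D105 and 7.43, 7.57 and 8.30 FPKM at D135. It had little spread within a day, and every D135 library lay below the earlier ones. MMP15 fell against D105 (log2 change -0.70 ± 0.09 SE, adjusted p = 0.00199) and against D85 (log2 change -0.75 ± 0.09 SE, adjusted p = 0.000734), and neither passed after scaling (-0.28 ± 0.10 SE, adjusted p = 0.105 and -0.32 ± 0.10 SE, adjusted p = 0.0526). MMP16, with 2.23 to 8.42 FPKM over the 9 libraries, was not called in any comparison, and its highest library was D105 replicate 2. MMP17 and MMP24 stayed below 0.5 FPKM in every library and were not tested.

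Of the collagenases, which cut intact fibrillar collagen, MMP1 was measurable and MMP13 stayed at or near 0. MMP1 was at 1.34, 2.89 and 0.739 FPKM at D85, 4.65, 1.14 and 7.27 FPKM at D105 and 0.0674, 0.185 and 0.104 FPKM at D135. The D85 and D105 libraries spread widely, with replicate 2 the lowest of D105, while the D135 libraries were all below 0.2 FPKM. MMP1 fell at D135 against D105 (log2 change -2.05 ± 0.48 SE, adjusted p = 0.0130; -1.90 ± 0.47 SE, adjusted p = 0.0281 after scaling) and did not pass against D85 (log2 change -1.17 ± 0.48 SE, adjusted p = 0.0803), a comparison that passed without D105 replicate 2 (log2 change -1.17 ± 0.30 SE, adjusted p = 0.0168). MMP13, a collagenase of cartilage and bone, was listed at 0 in 7 libraries and did not exceed 0.0482 FPKM. It was listed at 0 in D105 replicate 2, the library with the highest cartilage marker sum.

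MMP1 lies in a row of MMP genes. By gene order in RefSeq (assembly ARS-UI_Ramb_v3.0, consulted for neighbouring protein-coding genes alone), 7 members stand in the row MMP13, MMP12, MMP3, MMP1, MMP27, MMP20 and MMP7, with MMP8 between MMP1 and MMP27. MMP1 was the member of this row that reached 1 FPKM in any library. The highest value of the other 6 was 0.0878 FPKM, for the tooth enamel proteinase MMP20 in D85 replicate 1. The macrophage elastase MMP12, the stromelysin MMP3 and the matrilysin MMP7 were each listed at 0 in 8 of the 9 libraries, and at most 0.0481 FPKM in the other one. A 0 in this table may also be a failed estimate, so these genes are described only as listed at 0.

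Among the other MMPs, 4 were tested and all 4 fell against D105 on FPKM as deposited, where 35.0% of all tested loci fell; after scaling 1 of the 4 fell, where 6.94% of loci did. MMP23B, a membrane-anchored MMP, was at 3.12, 3.11 and 2.60 FPKM at D85, 3.75, 4.06 and 3.004 FPKM at D105 and 1.40, 1.03 and 1.96 FPKM at D135. MMP23B fell against D105 on both scales (log2 change -0.91 ± 0.16 SE, adjusted p = 0.00474; -0.60 ± 0.15 SE, adjusted p = 0.0320 after scaling), and against D85 on FPKM as deposited alone (log2 change -0.69 ± 0.16 SE, adjusted p = 0.00917; -0.38 ± 0.15 SE, adjusted p = 0.107 after scaling). MMP11, stromelysin-3, is activated inside the cell by furin and was at 2.60, 2.71 and 1.89 FPKM at D85, 3.11, 2.79 and 3.45 FPKM at D105 and 1.81, 1.46 and 1.57 FPKM at D135. MMP11 fell against D105 (log2 change -0.66 ± 0.13 SE, adjusted p = 0.00661) and against D85 (log2 change -0.37 ± 0.13 SE, adjusted p = 0.0432), and its calls were lost after scaling (adjusted p = 0.0752 and 0.734). The call against D85 was also lost with each of 7 libraries left out, up to an adjusted p of 0.124 without D85 replicate 2.

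MMP19, which cuts basement membrane proteins, was at 3.27, 1.77 and 3.53 FPKM at D85, 2.10, 2.33 and 2.15 FPKM at D105 and 0.960, 1.18 and 1.34 FPKM at D135. D85 replicate 2 was lower than the other D85 libraries, and D135 lay below all. The MMP19 call against D105 (log2 change -0.57 ± 0.19 SE, adjusted p = 0.0434) was lost in 7 of the 9 fits that left a library out, up to an adjusted p of 0.114 without D135 replicate 1, and MMP19 also fell against D85 (log2 change -0.81 ± 0.19 SE, adjusted p = 0.00940; -0.51 ± 0.20 SE, adjusted p = 0.0914 after scaling). MMP28, epilysin, was at 1.93, 1.41 and 1.57 FPKM at D85, 1.81, 3.46 and 2.39 FPKM at D105 and 1.33, 1.45 and 1.41 FPKM at D135. D105 replicate 2 was its highest library. The MMP28 call against D105 (log2 change -0.54 ± 0.17 SE, adjusted p = 0.0373) was lost in 6 of those fits, up to an adjusted p of 0.0866 without D135 replicate 1 and including the one without D105 replicate 2 (adjusted p = 0.0789). Neither MMP19 nor MMP28 passed after scaling (adjusted p = 0.369 and 0.356 against D105).

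The 4 inhibitors differed among themselves. TIMP3, which binds to the matrix, was at 27.4, 28.98 and 28.8 FPKM at D85, 33.3, 40.1 and 32.1 FPKM at D105 and 32.7, 26.1 and 29.2 FPKM at D135. Its D135 and D85 libraries overlapped on this scale. TIMP3 was not called in any comparison on FPKM as deposited, and after scaling it rose at D135 against D85 (0.50 ± 0.10 SE, adjusted p = 0.00992), with log2 change 0.04 ± 0.12 SE, adjusted p = 0.802 before. TIMP1, the inducible secreted inhibitor, was at 22.4, 26.3 and 21.9 FPKM at D85, 27.8, 46.1 and 22.8 FPKM at D105 and 15.9, 18.6 and 24.3 FPKM at D135. D105 replicate 2 was the highest library, and the others of the 3 days overlapped. TIMP1 was not called at D135 against D105 (log2 change -0.65 ± 0.26 SE, adjusted p = 0.0760), with log2 change -0.37 ± 0.19 SE, adjusted p = 0.172 without D105 replicate 2.

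TIMP2, the partner of MMP14 in MMP2 activation, shares its locus with CEP295NL and was at 9.87, 9.76 and 8.17 FPKM at D85, 9.51, 12.8 and 9.40 FPKM at D105 and 5.43, 6.98 and 8.64 FPKM at D135. All D135 libraries lay below those of D105, and replicate 3 of D135 lay among those of D85. The TIMP2 call against D105 (log2 change -0.54 ± 0.18 SE, adjusted p = 0.0426) was lost after scaling (-0.12 ± 0.18 SE, adjusted p = 0.686) and in 8 of the 9 fits that left a library out, up to an adjusted p of 0.118 without D105 replicate 2. TIMP4, known from heart and skeletal muscle, was the lowest of the 4 at 0.606, 0.723 and 0.830 FPKM at D85, 1.36, 0.515 and 1.56 FPKM at D105 and 1.51, 2.03 and 1.81 FPKM at D135. Every D135 library lay above every D85 library, and D105 replicate 2 was below the other D105 libraries. TIMP4, alone among the members to rise on both scales, rose at D135 against D85 (log2 change 0.69 ± 0.20 SE, adjusted p = 0.0228; 0.96 ± 0.20 SE, adjusted p = 0.00986 after scaling). This call was lost on FPKM as deposited in 4 of the 9 fits that left a library out, up to an adjusted p of 0.0735 without D135 replicate 2. TIMP4 reached 1 FPKM in no D85 library and would not have been tested without D135, the day where it is high. Its rise is therefore given as a description.

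**Figure D2:**
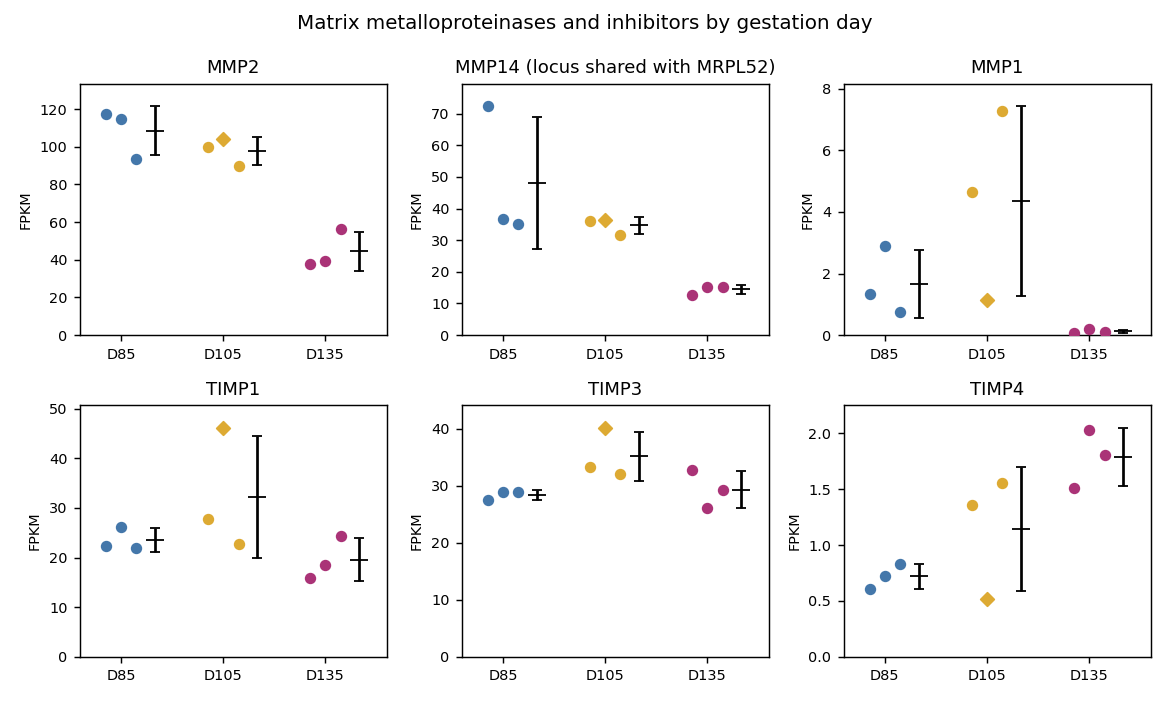
FPKM of 3 MMPs and 3 TIMPs by gestation day, with a point for each library, a diamond for D105 replicate 2, and the mean with SD (n = 3) beside the points. MMP2 and MMP14 lie below every earlier library at D135, MMP1 spreads widely at D105, and TIMP4 is higher in each D135 library than in each D85 library.

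The ratio of inhibitor to MMP transcripts within a library does not depend on the scaling, which cancels. Summed over the 18 MMPs, the level was 222, 181 and 157 FPKM at D85, 171, 177 and 159 FPKM at D105 and 66.9, 70.8 and 91.3 FPKM at D135. MMP2 and MMP14 made up 75.4% to 85.4% of that sum in each library. The sum holds the MMP14 locus joined to MRPL52, and the TIMP sum holds the TIMP2 locus joined to CEP295NL. Summed over the 4 TIMPs, the level was 60.3, 65.7 and 59.8 FPKM at D85, 71.98, 99.4 and 65.8 FPKM at D105 and 55.5, 53.7 and 63.9 FPKM at D135, with D105 replicate 2 highest. The ratio of the TIMP sum to the MMP sum was 0.272, 0.364 and 0.381 at D85, 0.420, 0.560 and 0.415 at D105 and 0.830, 0.758 and 0.700 at D135. The days did not overlap in this ratio, which averaged 0.339 ± 0.0588 at D85, 0.465 ± 0.0825 at D105 and 0.763 ± 0.0651 at D135 (SD, n = 3), or 0.417 at D105 without replicate 2. The ratio of TIMP3 to MMP2 was 0.234, 0.253 and 0.308 at D85, 0.333, 0.385 and 0.358 at D105 and 0.868, 0.662 and 0.518 at D135. The ratio of TIMP2 to MMP2 was 0.0843, 0.0852 and 0.0873 at D85, 0.0951, 0.123 and 0.105 at D105 and 0.144, 0.177 and 0.153 at D135. Neither of these ratios overlapped between days, while that of TIMP1 to MMP2 did, at 0.191, 0.229 and 0.234 at D85, 0.278, 0.443 and 0.254 at D105 and 0.422, 0.471 and 0.431 at D135. These ratios are given as a description, with no test. Summed over the 13 ADAMs the level was 45.5 to 52.8 FPKM at D135 and 71.8 to 88.1 FPKM on the earlier days, and over the 19 ADAMTS genes 54.9 to 82.3 FPKM at D135 and 98.1 to 119 FPKM on the earlier days.

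**Figure D3:**
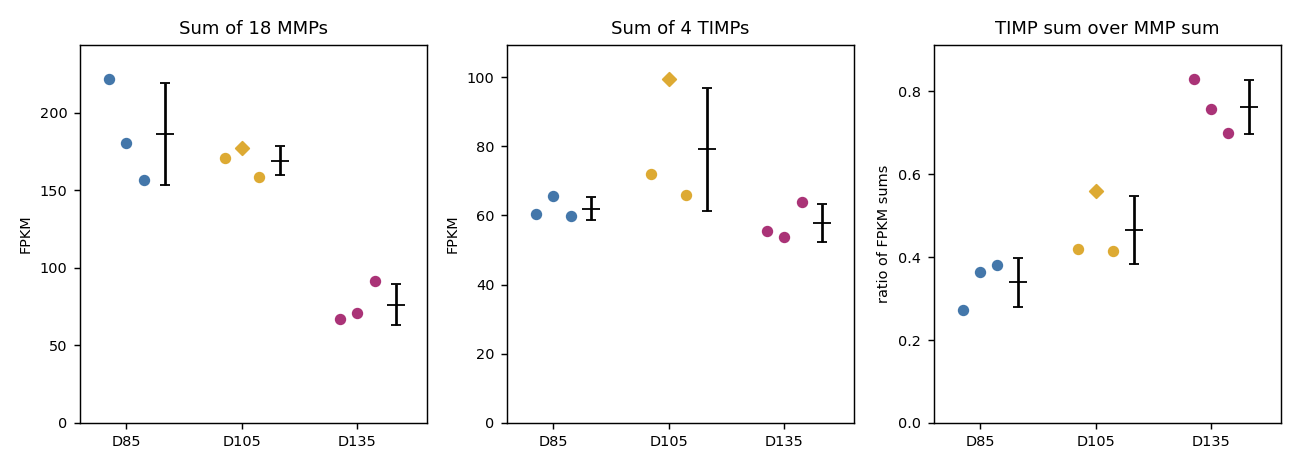
Summed FPKM of the 18 MMPs, summed FPKM of the 4 TIMPs and the ratio of the second to the first, by gestation day, with a point per library, a diamond for D105 replicate 2 and the mean with SD (n = 3). The MMP sum is 66.9 to 91.3 FPKM at D135 and 157 to 222 FPKM on the earlier days, and the ratio is 0.700 to 0.830 at D135, above every earlier library.

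ADAMs with a zinc-binding site act as sheddases. ADAM12, a marker of fusing myoblasts and of fibroadipogenic cells, was at 8.34, 7.90 and 7.005 FPKM at D85, 7.61, 8.93 and 5.34 FPKM at D105 and 1.41, 2.11 and 3.26 FPKM at D135. The D135 libraries all lay below the earlier ones, with replicate 3 highest among them. ADAM12 fell against D105 (log2 change -1.36 ± 0.23 SE, adjusted p = 0.00433; -1.01 ± 0.24 SE, adjusted p = 0.0238 after scaling) and against D85 (log2 change -1.46 ± 0.23 SE, adjusted p = 0.00188; -1.09 ± 0.24 SE, adjusted p = 0.0115 after scaling). ADAM33, a gene of mesenchymal cells, was at 17.1, 17.7 and 13.04 FPKM at D85, 17.9, 22.6 and 15.5 FPKM at D105 and 8.76, 7.22 and 9.95 FPKM at D135. Its D135 libraries also lay below all earlier ones, and D105 replicate 2 was highest. ADAM33 fell against D105 on both scales (log2 change -1.02 ± 0.18 SE, adjusted p = 0.00462; -0.60 ± 0.16 SE, adjusted p = 0.0339 after scaling) and against D85 on FPKM as deposited alone (log2 change -0.81 ± 0.18 SE, adjusted p = 0.00735; -0.38 ± 0.16 SE, adjusted p = 0.113 after scaling).

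ADAM17, which releases TNF and EGF receptor ligands, was at 7.77, 8.51 and 8.56 FPKM at D85, 8.28, 7.97 and 6.98 FPKM at D105 and 4.81, 4.12 and 4.86 FPKM at D135. Its D135 values did not overlap those of the earlier days. ADAM17 fell against D85 on both scales (log2 change -0.73 ± 0.10 SE, adjusted p = 0.00100; -0.33 ± 0.10 SE, adjusted p = 0.0394 after scaling) and against D105 on FPKM as deposited (log2 change -0.64 ± 0.10 SE, adjusted p = 0.00312; -0.25 ± 0.10 SE, adjusted p = 0.120 after scaling). ADAM10, the main Notch and cadherin sheddase, lay between 6.34 and 9.85 FPKM in the 9 libraries and did not pass in any comparison. The ratio of ADAM12 to ADAM10 within a library was 1.13, 1.15 and 0.866 at D85, 0.912, 0.907 and 0.643 at D105 and 0.222, 0.267 and 0.490 at D135, lower in every D135 library than in any earlier one.

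ADAM15, found in endothelium and other adherent cells, was at 14.99, 15.4 and 14.2 FPKM at D85, 19.6, 18.5 and 17.2 FPKM at D105 and 10.6, 12.6 and 12.8 FPKM at D135. D105 was its highest day. ADAM15 fell at D135 against D105 on FPKM as deposited (log2 change -0.58 ± 0.10 SE, adjusted p = 0.00393) and not after scaling (-0.15 ± 0.11 SE, adjusted p = 0.380), and its call against D85 (log2 change -0.29 ± 0.10 SE, adjusted p = 0.0390) turned to 0.15 ± 0.11 SE, adjusted p = 0.334 after scaling. That call was also lost in 6 of the 9 fits that left a library out, up to an adjusted p of 0.112 without D135 replicate 1. ADAM19, which sheds neuregulin, was at 7.80, 14.6 and 13.5 FPKM at D85, 9.12, 10.5 and 14.9 FPKM at D105 and 6.65, 7.93 and 8.63 FPKM at D135 and was not called. ADAM9 lay between 3.72 and 7.15 FPKM in the 9 libraries and was not called either. ADAM28 stayed below 0.1 FPKM and was not tested. Of the ADAMs without a zinc-binding site, ADAM22, a receptor of nerve cells, was tested and not called at 0.908 to 2.16 FPKM, while ADAM2, ADAM11, ADAM23 and ADAM32 stayed below 0.6 FPKM in every library.

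The ADAMTS proteoglycanases cut aggrecan and versican. ADAMTS4, aggrecanase-1, was at 3.50, 3.26 and 2.88 FPKM at D85, 3.49, 2.81 and 2.73 FPKM at D105 and 0.751, 0.785 and 1.28 FPKM at D135. ADAMTS8 was at 3.27, 3.12 and 2.73 FPKM at D85, 3.45, 2.12 and 3.14 FPKM at D105 and 0.448, 0.731 and 0.963 FPKM at D135. In both, every D135 library lay below every earlier one. ADAMTS4 fell against D105 (log2 change -1.05 ± 0.14 SE, adjusted p = 0.00184; -0.78 ± 0.14 SE, adjusted p = 0.00852 after scaling) and against D85 (log2 change -1.13 ± 0.14 SE, adjusted p = 0.000688; -0.84 ± 0.14 SE, adjusted p = 0.00359 after scaling). ADAMTS8 fell against D105 (log2 change -1.18 ± 0.17 SE, adjusted p = 0.00237; -0.93 ± 0.18 SE, adjusted p = 0.0101 after scaling) and against D85 (log2 change -1.25 ± 0.17 SE, adjusted p = 0.000995; -0.98 ± 0.18 SE, adjusted p = 0.00504 after scaling). ADAMTS15, which also cuts versican and is the next protein-coding gene to ADAMTS8 in the RefSeq table, was at 4.26, 3.37 and 3.69 FPKM at D85, 3.41, 2.18 and 1.89 FPKM at D105 and 1.13, 1.03 and 1.22 FPKM at D135. Its D105 libraries lay between the other days, apart from replicate 1, which overlapped D85. ADAMTS15 fell against D85 on both scales (log2 change -1.16 ± 0.16 SE, adjusted p = 0.00117; -0.86 ± 0.16 SE, adjusted p = 0.00627 after scaling) and against D105 on FPKM as deposited (log2 change -0.69 ± 0.16 SE, adjusted p = 0.0134; -0.42 ± 0.16 SE, adjusted p = 0.123 after scaling).

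Of the other 4 proteoglycanases, ADAMTS9 alone was called. ADAMTS9, the ADAMTS gene with the highest mean, was at 18.99, 21.7 and 20.1 FPKM at D85, 22.3, 22.9 and 22.7 FPKM at D105 and 13.3, 17.9 and 19.6 FPKM at D135. The call of ADAMTS9 against D105 (log2 change -0.41 ± 0.14 SE, adjusted p = 0.0438) was lost in 8 of the 9 fits that left a library out, up to an adjusted p of 0.0941 without D105 replicate 3, and turned to 0.03 ± 0.15 SE, adjusted p = 0.927 after scaling. ADAMTS20, needed for pigment cell precursors in mice, was at 7.62, 12.4 and 10.9 FPKM at D85, 12.1, 8.77 and 11.6 FPKM at D105 and 8.45, 9.16 and 8.66 FPKM at D135 and was not called. ADAMTS1 and ADAMTS5, neighbours in the RefSeq table, were not called either. ADAMTS1 lay between 3.15 and 5.11 FPKM over all libraries, while ADAMTS5, aggrecanase-2, spread from 0.906 FPKM in D85 replicate 2 to 7.33 FPKM in D105 replicate 2. Within a library, the ratio of ADAMTS8 to ADAMTS9 was 0.172, 0.144 and 0.136 at D85, 0.155, 0.0926 and 0.138 at D105 and 0.0336, 0.0407 and 0.0491 at D135, and that of ADAMTS4 to ADAMTS9 was 0.0437 to 0.0652 at D135 and 0.121 to 0.185 on the earlier days.

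Versican is the main large proteoglycan of developing muscle connective tissue, and its gene VCAN was at 62.4, 70.9 and 66.3 FPKM at D85, 50.2, 38.5 and 51.5 FPKM at D105 and 5.66, 5.01 and 6.83 FPKM at D135. The D135 libraries lay far below all earlier ones. VCAN fell against D105 (log2 change -2.80 ± 0.14 SE, adjusted p = 0.000125; log2 change -2.39 ± 0.15 SE, adjusted p = 0.000299 after scaling) and against D85 (log2 change -3.31 ± 0.14 SE, adjusted p = 0.0000456; log2 change -2.88 ± 0.15 SE, adjusted p = 0.0000630 after scaling). ACAN, aggrecan, was at most 2.47 FPKM, in D105 replicate 2, and at most 1.001 FPKM in the other libraries.

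**Figure D4:**
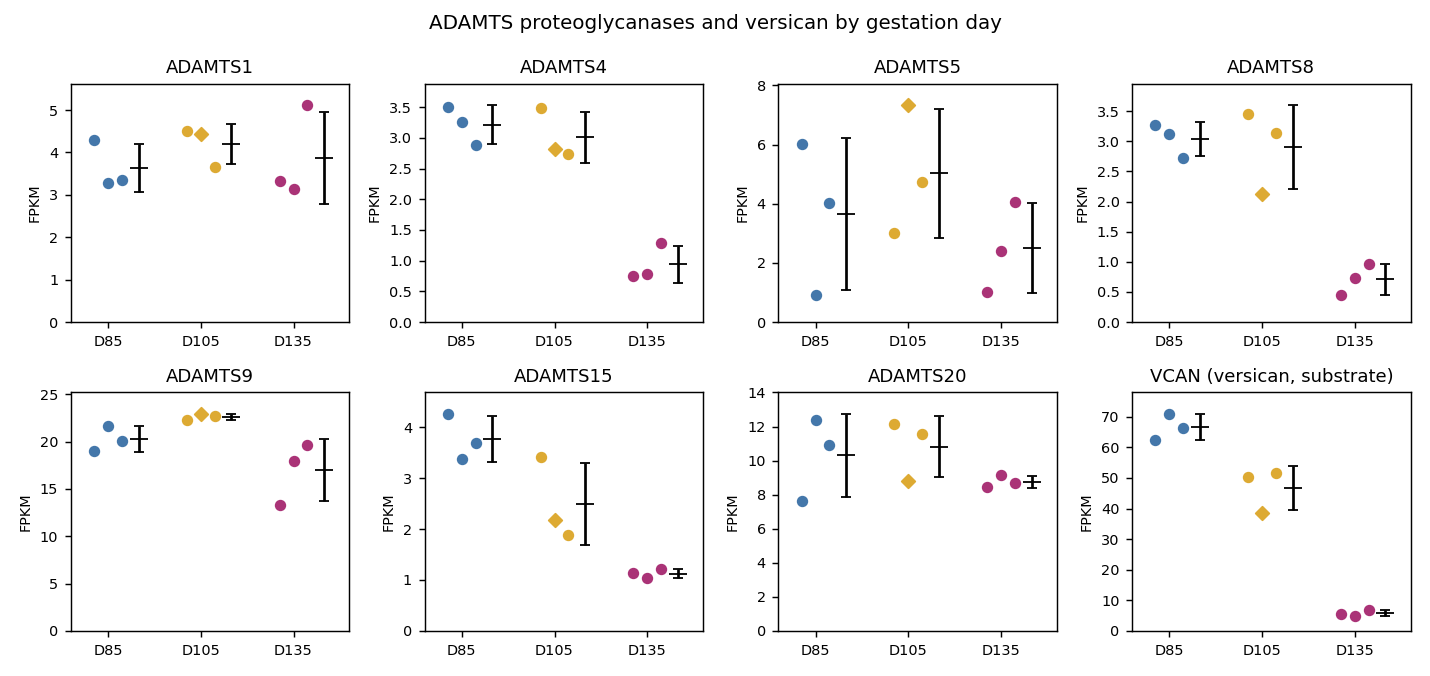
FPKM of the 7 ADAMTS proteoglycanases and of VCAN (versican) by gestation day, with a point per library, a diamond for D105 replicate 2 and the mean with SD (n = 3). ADAMTS4, ADAMTS8, ADAMTS15 and VCAN are lower in every D135 library than in any earlier library, while ADAMTS1, ADAMTS5 and ADAMTS20 overlap between D135 and both earlier days, and ADAMTS9 overlaps between D135 and D85 but not with D105.

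Of 5 tested ADAMTS genes with other roles, 4 fell at D135 against each earlier day on FPKM as deposited, where 35.0% of all tested loci fell against D105 and 39.7% against D85. After scaling 2 of the 5 fell against D105 and 4 against D85, where 6.94% and 12.5% of loci did. ADAMTS17, linked with fibrillin microfibrils, was at 6.92, 8.77 and 6.57 FPKM at D85, 7.88, 6.47 and 8.66 FPKM at D105 and 2.40, 2.03 and 3.16 FPKM at D135. ADAMTS16, expressed in developing kidney and gonad, was at 6.71, 7.27 and 5.80 FPKM at D85, 8.75, 5.68 and 6.50 FPKM at D105 and 2.60, 3.21 and 2.63 FPKM at D135. Neither overlapped between D135 and the earlier days, while D105 and D85 overlapped. ADAMTS17 fell against D105 (log2 change -1.30 ± 0.16 SE, adjusted p = 0.00155; -0.94 ± 0.16 SE, adjusted p = 0.00666 after scaling) and against D85 (log2 change -1.26 ± 0.16 SE, adjusted p = 0.000827; -0.88 ± 0.16 SE, adjusted p = 0.00499 after scaling). ADAMTS16 fell against D105 (log2 change -1.05 ± 0.16 SE, adjusted p = 0.00267; -0.68 ± 0.16 SE, adjusted p = 0.0217 after scaling) and against D85 (log2 change -0.99 ± 0.16 SE, adjusted p = 0.00178; -0.62 ± 0.16 SE, adjusted p = 0.0220 after scaling). In both genes D105 replicate 2 was the lowest D105 library.

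ADAMTS19, linked with heart valve disease in humans, was at 5.51, 4.12 and 4.97 FPKM at D85, 3.47, 4.79 and 3.13 FPKM at D105 and 1.22, 1.90 and 1.71 FPKM at D135. ADAMTS6, a relative of ADAMTS10 in fibrillin biology, was at 1.13, 1.41 and 1.23 FPKM at D85, 0.966, 1.41 and 1.09 FPKM at D105 and 0.514, 0.342 and 0.522 FPKM at D135. Both were lower in each D135 library than in any earlier one. ADAMTS19 fell against D85 on both scales (log2 change -1.17 ± 0.17 SE, adjusted p = 0.00124; -0.83 ± 0.18 SE, adjusted p = 0.0101 after scaling), and so did ADAMTS6 (log2 change -0.63 ± 0.12 SE, adjusted p = 0.00462; -0.43 ± 0.12 SE, adjusted p = 0.0283 after scaling). Against D105 both passed on FPKM as deposited (adjusted p = 0.00641 and 0.0101) and not after scaling (adjusted p = 0.0685 and 0.0651). ADAMTS10 was not called at 2.12 to 3.97 FPKM. ADAMTS13, the plasma proteinase of von Willebrand factor, stayed below 0.2 FPKM, and ADAMTS18 passed 1 FPKM in D85 replicate 1 and D105 replicate 2 alone, so neither was tested.

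ADAMTS7 and ADAMTS12 cut cartilage oligomeric matrix protein. ADAMTS7 was at 4.74, 4.50 and 3.04 FPKM at D85, 3.48, 3.23 and 2.69 FPKM at D105 and 1.15, 1.31 and 1.66 FPKM at D135. ADAMTS12, on a locus joined to LOC106991648, was at 12.9, 11.2 and 11.5 FPKM at D85, 10.5, 15.4 and 9.82 FPKM at D105 and 4.65, 4.37 and 8.81 FPKM at D135. In both the D135 libraries lay below all earlier ones, and D135 replicate 3 was the highest of its day. ADAMTS7 fell against D85 on both scales (log2 change -1.09 ± 0.16 SE, adjusted p = 0.00143; -0.77 ± 0.15 SE, adjusted p = 0.00714 after scaling) and against D105 on FPKM as deposited (log2 change -0.80 ± 0.16 SE, adjusted p = 0.00744; -0.50 ± 0.15 SE, adjusted p = 0.0555 after scaling). ADAMTS12 fell against D105 (log2 change -0.93 ± 0.25 SE, adjusted p = 0.0215) and D85 (log2 change -0.94 ± 0.25 SE, adjusted p = 0.0165) on FPKM as deposited, but did not pass after scaling (adjusted p = 0.202 and 0.166), and each call was lost in 3 of the 9 fits that left a library out, up to an adjusted p of 0.0726 without D135 replicate 2 against D105 and up to an adjusted p of 0.0572 without D135 replicate 2 against D85.

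Of the procollagen N-proteinases, which trim the ends of fibrillar procollagens, ADAMTS2 and ADAMTS3 were tested and did not pass in any comparison. ADAMTS2 was at 17.1, 13.1 and 12.7 FPKM at D85, 16.1, 23.7 and 15.3 FPKM at D105 and 9.66, 11.99 and 18.6 FPKM at D135. D105 replicate 2 and D135 replicate 3 were the highest of their days, as they were for the fibroblast marker sum. ADAMTS3 had 0.390 to 1.90 FPKM over the 9 libraries, again with D105 replicate 2 highest. ADAMTS14 stayed below 1 FPKM and was not tested. It had 0.706 to 0.931 FPKM at D85, 0.286 to 0.574 FPKM at D105 and 0.141 to 0.175 FPKM at D135. Every D135 library lay below every earlier one.

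D105 replicate 2 was the highest D105 library for 23 of the 38 tested members (60.5%), where it was so for 38.5% of all tested loci, and it was the lowest for 8. It was the highest of all 9 libraries for 18 members. D135 replicate 3, which had the highest fibroblast marker sum of its day, was the highest D135 library for 27 of 38 members (71.1%), where it was so for 33.9% of all tested loci. None of the members had 5 FPKM or more in D105 replicate 2 together with at least 3 times the higher of the other D105 libraries. The fibroblast marker sum was highest in the same libraries of these days, and its part in the changes between days was not tested.

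**Figure D5:**
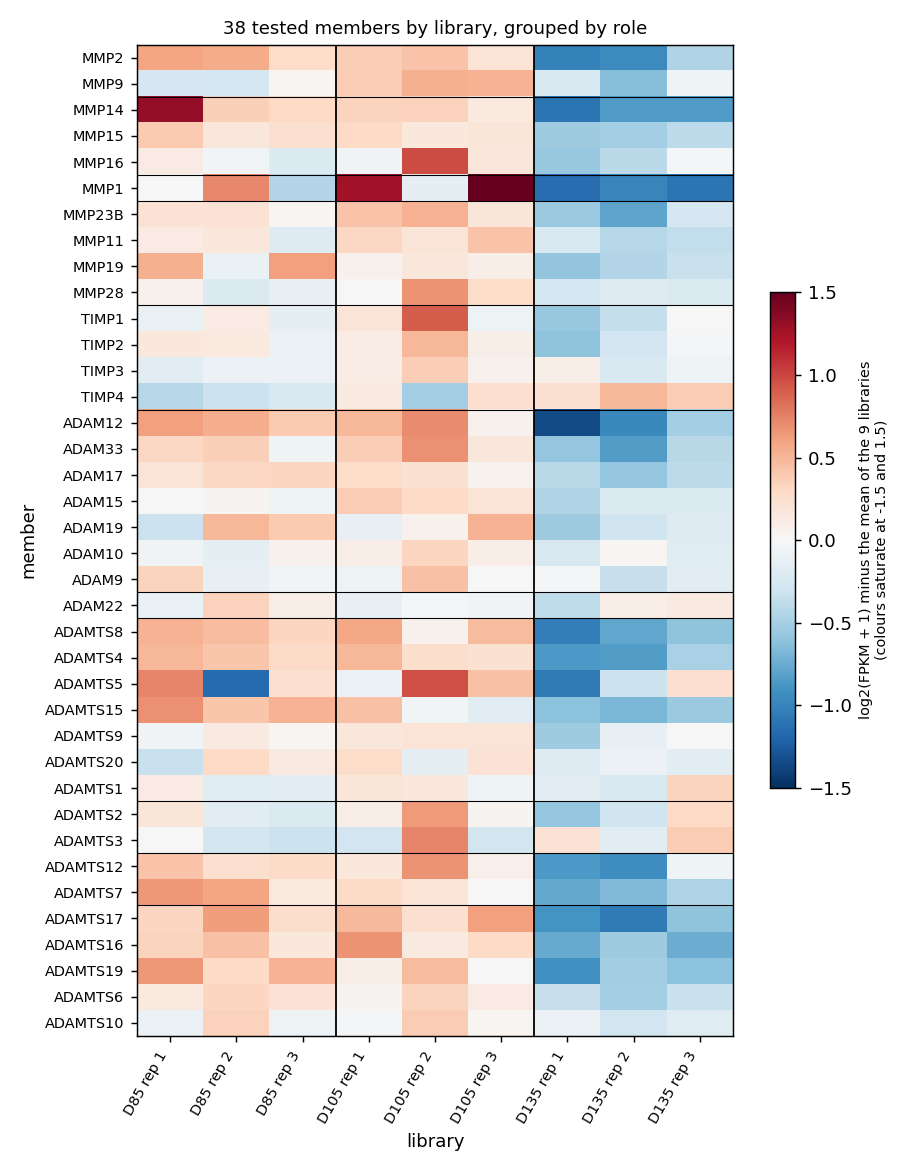
Log2(FPKM + 1) of the 38 tested members in each library, minus the member's mean over the 9 libraries, grouped by role; red is above and blue below the member's mean. D135 libraries are below the mean for most proteinases and above it for TIMP4, and D105 replicate 2 stands out for MMP16, TIMP1, ADAMTS5 and ADAMTS3.

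Other genes of the system were read from lists of activators and surface regulators, further inhibitors, ADAMTS-like proteins, other matrix proteinases and substrates. Of 15 activators and regulators tested, 1 rose and 6 fell at D135 against D105 (2 and 2 after scaling), where 4.47% of all tested loci rose and 35.0% fell (10.9% and 6.94% after scaling), and their median log2 change was -0.31 against -0.33 over all tested loci. PCSK6, a proprotein convertase, was at 1.24, 1.13 and 1.30 FPKM at D85, 1.94, 2.98 and 2.16 FPKM at D105 and 3.41, 3.66 and 4.54 FPKM at D135. It rose at D135 against D105 (log2 change 0.54 ± 0.14 SE, adjusted p = 0.0196; log2 change 0.89 ± 0.14 SE, adjusted p = 0.00547 after scaling). RHBDF2, which carries ADAM17 to the cell surface, was at 0.898, 1.01 and 0.896 FPKM at D85, 2.21, 2.30 and 1.96 FPKM at D105 and 2.70, 2.49 and 2.62 FPKM at D135, and it was the gene of these lists called at D105 against D85 (log2 change 0.70 ± 0.09 SE, adjusted p = 0.0407), a call lost without D105 replicate 2 (log2 change 0.67 ± 0.10 SE, adjusted p = 0.0936). Its relative RHBDF1 was at 9.95, 10.9 and 8.75 FPKM at D85, 10.4, 9.14 and 8.36 FPKM at D105 and 4.69, 4.44 and 5.61 FPKM at D135. At D135 against D105 RHBDF1 fell (log2 change -0.80 ± 0.12 SE, adjusted p = 0.00308; log2 change -0.40 ± 0.11 SE, adjusted p = 0.0449 after scaling) while RHBDF2 did not pass on FPKM as deposited (log2 change 0.19 ± 0.09 SE, adjusted p = 0.131; log2 change 0.52 ± 0.09 SE, adjusted p = 0.00578 after scaling). At D135 against D85 RHBDF2 rose (log2 change 0.90 ± 0.09 SE, adjusted p = 0.000343; log2 change 1.20 ± 0.09 SE, adjusted p = 0.000133 after scaling) and RHBDF1 fell (log2 change -0.88 ± 0.12 SE, adjusted p = 0.00114; log2 change -0.46 ± 0.11 SE, adjusted p = 0.0188 after scaling).

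TSPAN33, one of the tetraspanins that accompany ADAM10, was at 1.47, 1.52 and 1.08 FPKM at D85, 5.61, 3.69 and 3.40 FPKM at D105 and 1.69, 1.03 and 1.68 FPKM at D135. All D105 libraries lay above those of the other days, and it fell at D135 against D105 (log2 change -1.07 ± 0.19 SE, adjusted p = 0.00484; log2 change -0.76 ± 0.18 SE, adjusted p = 0.0246 after scaling). At D135 against D85, 2 of the 15 activators and regulators rose and 4 fell, where 6.90% of all tested loci rose and 39.7% fell. After scaling 4 rose (SERPINF1, PCSK6, BSG and RHBDF2) and 3 fell, where 15.3% and 12.5% of loci did. CD44, a docking site of MMP9, fell at D135 against D85 (log2 change -1.21 ± 0.14 SE, adjusted p = 0.000542; log2 change -0.77 ± 0.15 SE, adjusted p = 0.00743 after scaling). PLAT, tissue plasminogen activator, fell too (log2 change -1.06 ± 0.15 SE, adjusted p = 0.00117; log2 change -0.68 ± 0.13 SE, adjusted p = 0.00733 after scaling). Of 7 further inhibitors and modulators tested, 3 fell and 0 rose at D135 against D105 (2 and 0 after scaling), where 35.0% of all tested loci fell (6.94% after scaling). SPOCK1, a testican, was at 3.06, 3.15 and 2.82 FPKM at D85, 3.06, 2.36 and 2.35 FPKM at D105 and 0.582, 0.597 and 0.572 FPKM at D135 and fell (log2 change -1.17 ± 0.11 SE, adjusted p = 0.000800; log2 change -0.94 ± 0.10 SE, adjusted p = 0.00148 after scaling). It reached 1 FPKM in no D135 library and entered the test through the earlier days. A2M, the general proteinase trap, fell too (log2 change -1.19 ± 0.24 SE, adjusted p = 0.00726; log2 change -0.89 ± 0.25 SE, adjusted p = 0.0427 after scaling), as did RECK, a membrane-anchored MMP inhibitor (log2 change -0.57 ± 0.12 SE, adjusted p = 0.00806; log2 change -0.23 ± 0.11 SE, adjusted p = 0.201 after scaling). This list also held PCOLCE, which enhances procollagen processing and is no inhibitor of MMPs, and it was not called.

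Of 7 ADAMTS-like proteins and papilin, which lack the proteinase domain, 3 fell and 0 rose at D135 against D105 on FPKM as deposited, and 2 of 6 tested fell after scaling, beside the same 35.0% and 6.94% of all tested loci. ADAMTSL1 fell (log2 change -1.07 ± 0.12 SE, adjusted p = 0.00101; log2 change -0.76 ± 0.12 SE, adjusted p = 0.00500 after scaling), and so did THSD4 (log2 change -0.94 ± 0.14 SE, adjusted p = 0.00307; log2 change -0.60 ± 0.14 SE, adjusted p = 0.0209 after scaling). Of 11 other matrix proteinases tested, 5 fell and 0 rose at D135 against D105, and 0 passed after scaling, again beside falls of 35.0% and 6.94% of all tested loci. BMP1, the procollagen C-proteinase, was at 13.6, 15.8 and 14.5 FPKM at D85, 14.1, 18.8 and 12.6 FPKM at D105 and 5.87, 6.47 and 9.42 FPKM at D135 and fell on FPKM as deposited (log2 change -0.97 ± 0.19 SE, adjusted p = 0.00654; log2 change -0.56 ± 0.19 SE, adjusted p = 0.0851 after scaling). HTRA1, a secreted serine proteinase, fell likewise (log2 change -0.87 ± 0.18 SE, adjusted p = 0.00766; log2 change -0.42 ± 0.18 SE, adjusted p = 0.162 after scaling). FAP, fibroblast activation protein, fell too on FPKM as deposited (log2 change -0.74 ± 0.19 SE, adjusted p = 0.0173; log2 change -0.31 ± 0.18 SE, adjusted p = 0.289 after scaling).

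Among 20 substrates tested, 8 fell and 0 rose at D135 against D105 (3 and 0 after scaling), where 35.0% of all tested loci fell (6.94% after scaling), with a median log2 change of -0.56 against -0.33 over all tested loci. Beside VCAN, FN1, fibronectin, was at 201, 133 and 148 FPKM at D85, 143, 166 and 139 FPKM at D105 and 58.8, 60.5 and 74.9 FPKM at D135 and fell (log2 change -1.20 ± 0.17 SE, adjusted p = 0.00246; log2 change -0.74 ± 0.18 SE, adjusted p = 0.0248 after scaling). CDH2, N-cadherin, which ADAM10 cuts, was at 2.40, 1.99 and 2.14 FPKM at D85, 1.02, 1.26 and 0.883 FPKM at D105 and 0.0803, 0.147 and 0.246 FPKM at D135 and fell (log2 change -0.83 ± 0.12 SE, adjusted p = 0.00248; log2 change -0.70 ± 0.12 SE, adjusted p = 0.00741 after scaling). CDH2 too reached 1 FPKM in no D135 library and entered the test through the earlier days. FBN2, the fetal fibrillin, was at 30.1, 26.3 and 25.4 FPKM at D85, 13.1, 26.4 and 14.2 FPKM at D105 and 5.65, 6.52 and 10.3 FPKM at D135 and fell on FPKM as deposited (log2 change -1.12 ± 0.28 SE, adjusted p = 0.0165; log2 change -0.71 ± 0.28 SE, adjusted p = 0.128 after scaling). COL3A1, the collagen of reticular fibres, was at 1291, 723 and 817 FPKM at D85, 1155, 1565 and 1134 FPKM at D105 and 619, 603 and 797 FPKM at D135 and fell on FPKM as deposited (log2 change -0.93 ± 0.25 SE, adjusted p = 0.0200; log2 change -0.47 ± 0.25 SE, adjusted p = 0.239 after scaling). This call was lost without D105 replicate 2 (log2 change -0.78 ± 0.26 SE, adjusted p = 0.0595).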

How the data were processed

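The authors deposited FPKM values for 9 libraries in a single table. Cutadapt, Bowtie2 and TopHat2 stand in the submitters' processing notes without version or role, and the build and the method of quantification were not given in the sources used here. Per the labels' protocols, RNA was extracted with Trizol. Members and lists were chosen with earlier results of these data known. Members were matched by gene name; 163 of 171 list entries were found. Genes with values in every library were the TIMPs, members called between any 2 days, the 3 highest of each family, and some called genes of the lists. Further called list genes were named with their log2 change alone. Tests (limma 3.58.1, R 4.3.3, eBayes with a trend, two-sided, threshold 0.05) took log2(FPKM + 1) of loci that reached 1 FPKM in 3 or more of the 9 libraries. Median-of-ratios scaling divided each column by its median ratio to the geometric mean of loci above 0 everywhere. On simulated data for D135 against D105 (13086 loci), 79% of 100 loci changed by a log2 of 1 and 90% of 100 changed by 2 were recovered, with 11 false calls. The changed loci all had a mean log2(FPKM + 1) above 2 and were all raised at D135. No shift of the typical locus was simulated, so these figures do not cover lower genes or falls beside such a shift. Alternatives changed the pseudocount, filter, scaling, variance model and libraries. Figures used matplotlib 3.10.9. No sequence is shown.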

Additional observations from a re-analysis of the deposited data

Results flagged for a closer look

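The second MMP16 locus was not used in the comparisons because its mean was lower, and it was above 0 in 3 libraries, highest in D105 replicate 2. It was listed at 10.5 FPKM in D105 replicate 2, against 0 FPKM in D105 replicates 1 and 3. In the other days it was at 0.610 FPKM in D85 replicate 3 and 0.479 FPKM in D135 replicate 1, and at 0 in the remaining libraries. This locus holds an assembled transcript and no reference transcript. Its source was not tested.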

How the results depend on the processing

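No member was called between D105 and D85 under any of the alternatives run. At D135 against D105 the 24 calls became 12 with a filter of 5 FPKM in 3 libraries, 9 with median-of-ratios scaling, 11 with quantile normalization and 5 without D105 replicate 2 and median-of-ratios scaling together, all of them falls. Fewer members are tested under the stricter filter; for the scalings the cause was not tested. At D135 against D85 the 20 calls became 10 with the stricter filter, 13 with quantile normalization and 13 without D105 replicate 2 and the scaling together. Over any day the 21 calls became 10 with the stricter filter, 13 with median-of-ratios scaling and 13 with the last combination. With a library left out, 0 to 0 members were called at D105 against D85, 18 to 22 at D135 against D105, 16 to 20 at D135 against D85 and 18 to 21 over any day. The direction turned for ADAMTS9 against D105 (0.0281 with median-of-ratios scaling and 0.0238 with D105 replicate 2 also left out) and for ADAM15 against D85 (0.15, 0.15 and, with quantiles, 0.0147). With the replicate number as a block these counts were 0, 21, 19 and 19; libraries of the same number did not deviate together (correlations of -0.0659 to 0.0605 over 9 pairs). Of 511 alternative values for the members called at D135 against D105, 420 kept the call, 89 kept the direction alone and 2 turned; at D135 against D85 these were 380, 46 and 3 of 429. The number of reads limits genes below 1 FPKM.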
